A study of Mus musculus with 3 samples.

Results

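The secreted Wnt antagonists described here are 8 genes: *Sfrp1* (ENSMUSG00000031548), *Sfrp2* (ENSMUSG00000027996), *Sfrp4* (ENSMUSG00000021319), *Sfrp5* (ENSMUSG00000018822), *Frzb* (ENSMUSG00000027004), *Wif1* (ENSMUSG00000020218), *Dkk2* (ENSMUSG00000028031) and *Dkk3* (ENSMUSG00000030772). They were chosen by symbol out of the 32285 genes of the count tables, and each symbol matched 1 row. They were followed by single-cell RNA sequencing (scRNAseq) of mouse flexor digitorum longus (FDL) tendons in 3 libraries, each made from 16 tendons pooled from male and female mice. The 6 M WT library came from Scx-Cre-; DTR F/+ littermates. The 6 M DTR library came from Scx-Cre+; DTR F/+ mice, whose Scx-Cre transgene turns on the DTR allele, the receptor for diphtheria toxin (DT), within the Scleraxis lineage and so makes it sensitive to depletion by DT. Both groups received the same 5 daily DT injections. The name 6 M is their age at harvest in months, while the labels give 3 M, the age at injection. The 21 M B6 library came from untreated 21-month-old C57BL/6J mice without either allele. The comparisons ask how the expression of these genes differs after sustained depletion and with natural ageing. The libraries are called WT, DTR and B6 from here on. Digestion took 120 min for WT and 90 min for the other libraries, so digestion time cannot be told apart from depletion in DTR against WT, nor from age, toxin and the transgenic alleles in B6 against WT.

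Wnt ligands are secreted proteins that bind Frizzled receptors together with Lrp5 or Lrp6 and stabilise β-catenin in the receiving cell. Secreted Frizzled-related proteins (*Sfrp1*, *Sfrp2*, *Sfrp4*, *Sfrp5* and *Frzb*) and Wnt inhibitory factor 1 (*Wif1*) bind the ligand itself outside the cell. Dickkopf proteins act at the co-receptor: Dkk2 binds Lrp5 and Lrp6, whereas Dkk3 is a divergent member of that family. Tenocytes are the fibroblasts inside the tendon, and the epitenon is the cell layer that covers it.

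After filtering, 8357 cells remained in WT, 6554 in DTR and 4798 in B6, with medians of 12328 to 13008 UMIs (unique molecular identifiers, the counted transcripts) per cell. Each pair of libraries shared 13 to 15 barcodes among kept cells, at most 0.292% of a library. Cells were assigned to 10 gates by the number of marker genes with at least 2 UMIs, none of which is a member. The tenocyte gate held 5139, 2616 and 847 cells of WT, DTR and B6, or 61.5%, 39.9% and 17.7% of kept cells. The epitenon gate held 1106, 1104 and 2351 cells, or 13.2%, 16.8% and 49.0%. The 9 tenocyte markers summed to 14459 to 16034 CPM (UMIs scaled to a common total within each gate and library) in the tenocyte gate and to 111 to 303 CPM in the epitenon gate. Of the 6 epitenon markers, *Clec3b* separated the gates least. It stood at 931, 631 and 978 CPM in the tenocyte gate of WT, DTR and B6, and at 1221, 1554 and 1120 CPM in the epitenon gate. The epitenon gate asked for 2 of these markers, and *Clec3b* could be 1 of them. Synovial lining markers were also found in the epitenon gate, with *Clic5* at 154, 176 and 157 CPM and *Has1* at 922, 636 and 2725 CPM. *Tspan15* stood at 28.5 to 33.3 CPM, and *Prg4*, at 6552 to 10266 CPM, was high in the tenocyte gate too. Whether the epitenon gate holds synovial lining cells was not tested. Because the cell makeup differed between the libraries, each level below is given within a gate. Of all barcodes, 27.6% in WT, 43.1% in DTR and 56.5% in B6 exceeded the limit of 10% mitochondrial UMIs, a measure of cell quality that moved with the groups. With limits of 5% and 20%, the same members passed 2-fold in each comparison described below. The part of cell quality in these comparisons was otherwise not tested. Cells called female and male by *Xist* and Y-linked transcripts numbered 3166 and 1223 in the tenocyte gate of WT, 872 and 1235 in DTR and 314 and 307 in B6, so the mix of the sexes differed too. In the epitenon gate they numbered 677 and 304, 439 and 541, and 1106 and 893. With 1 library per group there was no replicate check and no difference was tested. All intervals are exact 95% Poisson or binomial intervals that cover counting error only.

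The members differed in the cells that held them. *Wif1* was mainly a tenocyte transcript, *Sfrp4* and *Sfrp1* were mainly epitenon transcripts, and *Sfrp5* was mainly a transcript of nerve-associated cells. *Dkk3*, *Dkk2* and *Frzb* were divided between tenocytes and epitenon cells. The tenocyte gate held 92.8% of the *Wif1* UMIs of WT, 88.8% of those of DTR and 82.9% of those of B6, compared with 61.5%, 40.7% and 15.6% of all UMIs. The epitenon gate held 83.6%, 70.4% and 75.8% of *Sfrp4* UMIs and 57.0%, 55.3% and 79.8% of *Sfrp1* UMIs, compared with 15.4%, 20.5% and 54.0% of all UMIs. These shares follow both the level per cell and the number of cells of each gate.

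**Figure D1:**
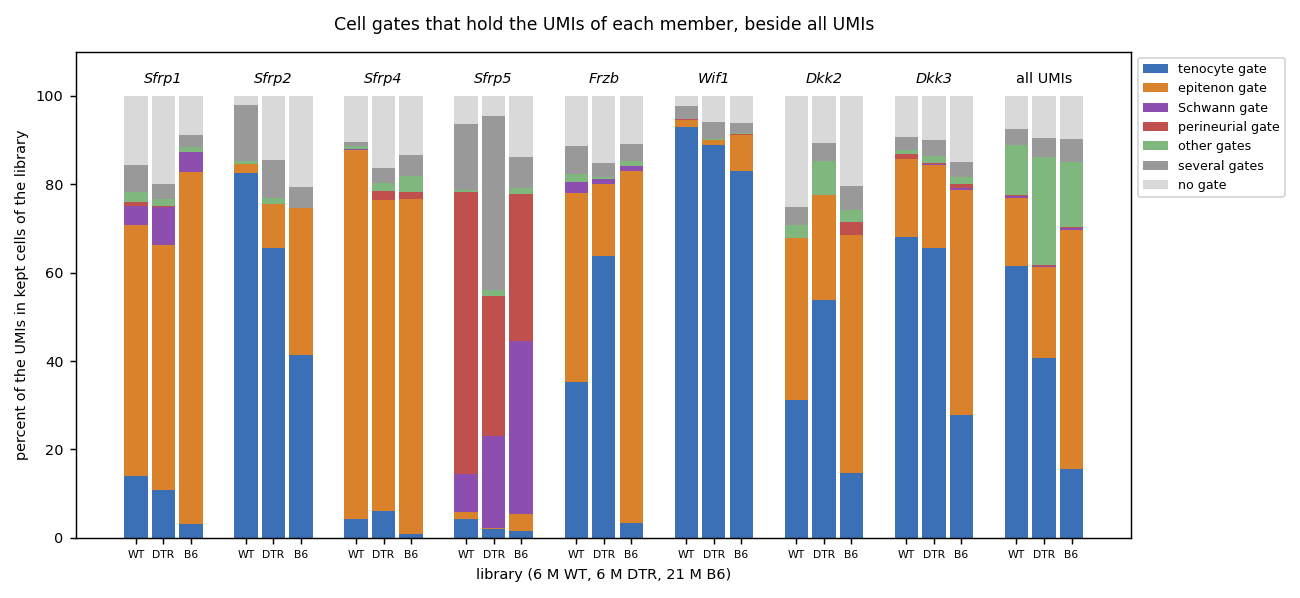
Stacked bars give the percent of each member's UMIs in kept cells that lay in each cell gate, 1 bar per library (from the left: 6 M WT, then 6 M DTR, then 21 M B6), with all UMIs on the right. *Wif1* bars are mostly tenocyte gate (82.9% to 92.8%), *Sfrp4* bars mostly epitenon gate (70.4% to 83.6%), and *Sfrp5* bars are divided among perineurial, Schwann and mixed cells.

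Among the Frizzled-related genes, *Sfrp1* was high in the Schwann gate, the glia of peripheral nerve, and lower in the epitenon gate. In Schwann-gated cells it stood at 173 CPM (131 to 224) in WT, 222 CPM (175 to 278) in DTR and 259 CPM (206 to 321) in B6, from 51, 53 and 31 cells. These intervals overlap. In the epitenon gate *Sfrp1* stood at 45.7 CPM (42.5 to 48.9), 28.0 CPM (25.6 to 30.6) and 42.2 CPM (40.1 to 44.4) in the same order. In the tenocyte gate it stood at 2.79, 2.74 and 5.54 CPM, and in the macrophage gate at 0.780, 0.394 and 1.29 CPM. The order of these gates was therefore the same in each library, with Schwann above epitenon, epitenon above tenocyte and tenocyte above macrophage. Intervals did not overlap between Schwann, epitenon and tenocyte gates. Muscle fibre cells of WT had 187 CPM, but all 8 *Sfrp1* UMIs came from 1 of 6 cells.

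*Sfrp5* had its highest level in the perineurial gate, the cells of the nerve sheath. It stood there at 1196 CPM (1088 to 1311) in WT, 1025 CPM (831 to 1252) in DTR and 348 CPM (252 to 469) in B6. Only 34, 9 and 10 cells passed this gate, and 1 cell held 90 of the 453 UMIs in WT, 70 of 96 in DTR and 29 of 43 in B6. The lower B6 level thus rested on few cells, and *Sfrp5* UMIs were found in 85.3%, 44.4% and 40% of them. In the Schwann gate *Sfrp5* was steadier, at 179 CPM (137 to 231), 182 CPM (140 to 233) and 161 CPM (120 to 212). Tenocyte-gated and epitenon-gated cells had at most 0.687 CPM of *Sfrp5*. Barcodes left out for passing several gates held 14.9%, 39.3% and 6.92% of *Sfrp5* UMIs, and whether these are doublets was not tested.

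*Sfrp4* was an epitenon transcript at 107 CPM (102 to 112) in WT, 89.8 CPM (85.4 to 94.4) in DTR and 46.2 CPM (44.0 to 48.5) in B6. Its UMIs were concentrated in few cells: *Sfrp4* was detected in 21.1%, 24.1% and 16.6% of epitenon-gated cells, and the cell with the most UMIs held 235 of 1870, 139 of 1579 and 92 of 1642. Satellite-gated cells, the stem cells of muscle, stood at 27.5 CPM (11.9 to 54.3), 53.5 CPM (28.5 to 91.4) and 91.1 CPM (64.8 to 125) from 26, 29 and 43 cells. In B6, 28 of those 39 UMIs lay in 1 cell. Perineurial values of 513 CPM in DTR and 267 CPM in B6 came from 48 UMIs in a single cell and from 33 UMIs in 10 cells. The tenocyte gate was low throughout, at 1.37, 3.83 and 1.65 CPM.

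*Frzb*, which encodes the protein also called sFRP3, was low and spread over 3 gates. Schwann-gated cells had 50.7 CPM (29.6 to 81.2) in WT, 28.9 CPM (13.8 to 53.1) in DTR and 15.8 CPM (5.12 to 36.8) in B6, with overlapping intervals and 17, 10 and 5 UMIs. Epitenon-gated cells had 16.8 CPM (15.0 to 18.9), 8.30 CPM (7.01 to 9.77) and 8.89 CPM (7.94 to 9.93). Tenocyte-gated cells had 3.49 CPM (3.07 to 3.96), 16.3 CPM (15.0 to 17.7) and 1.26 CPM (0.673 to 2.16). By these gates, tenocytes thus stood below epitenon cells in WT and B6 and above them in DTR. Some tenocyte-gated cells of DTR fell among epitenon cells in a separate Seurat clustering and had more *Frzb* than the gate as a whole. Whether the order in DTR holds by cluster was not tested.

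*Sfrp2* was near the detection limit and, among the gates, highest in the tenocyte gate. It stood there at 1.76 CPM (1.46 to 2.1) in WT, 5.29 CPM (4.55 to 6.10) in DTR and 5.06 CPM (3.78 to 6.63) in B6. The tenocyte gate held 82.6% and 65.6% of *Sfrp2* UMIs in WT and DTR. In B6 it held 41.3% and the epitenon gate 33.3%. No gate reached 10 CPM of *Sfrp2* in any library. In DTR, 43 of the 185 *Sfrp2* UMIs of tenocyte-gated cells lay in 1 cell.

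*Wif1* was highest in the tenocyte gate of every library, at 282 CPM (278 to 286) in WT, 125 CPM (121 to 129) in DTR and 190.0 CPM (182 to 199) in B6. The WT level was the highest and the DTR level the lowest, and the intervals did not overlap. The epitenon gate had 20.5 CPM (18.4 to 22.7), 3.30 CPM (2.51 to 4.26) and 5.46 CPM (4.72 to 6.29). Macrophage-gated cells, which should lack the gene, had 1.23, 0.197 and 0.287 CPM. Schwann-gated cells of WT had 38.8 CPM of *Wif1*, but 11 of those 13 UMIs came from 1 cell. Perineurial cells had 37.0, 32.0 and 24.3 CPM from 14, 3 and 3 UMIs.

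To compare shares of positive cells, each cell was thinned to 2000 UMIs. *Wif1* was then detected in 23.6% (22.4 to 24.8) of tenocyte-gated cells in WT, 9.21% (8.13 to 10.4) in DTR and 15.0% (12.7 to 17.6) in B6. Without thinning the shares were 46.7%, 22.1% and 26.6%, at median depths of 13008, 12642 and 11347 UMIs. In the macrophage gate, at 16207, 13278 and 13848 UMIs, thinned shares were 0% (up to 0.687%), 0.0929% and 0% (up to 0.772%), and unthinned shares 2.06%, 0.279% and 0.420%. The share of *Wif1*-positive tenocytes therefore followed the same order of libraries as the level and lay above the macrophage background.

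*Dkk2* was low in tenocytes and higher in epitenon cells of WT. The epitenon gate had 27.9 CPM (25.5 to 30.5) in WT, 6.77 CPM (5.61 to 8.10) in DTR and 10.1 CPM (9.11 to 11.2) in B6. The tenocyte gate had 5.95 CPM (5.40 to 6.55), 7.71 CPM (6.82 to 8.69) and 9.53 CPM (7.74 to 11.6). The gates thus differed in WT, while in DTR and B6 their intervals overlapped. Cells outside all gates held 25.1%, 10.8% and 20.4% of *Dkk2* UMIs. Perineurial cells of B6 reached 162 CPM of *Dkk2* from 20 UMIs, 14 of them in 1 cell, and endothelial cells of WT 13.7 CPM from 17 UMIs, also 14 of them in 1 cell.

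*Dkk3* stood at similar levels in tenocytes and epitenon cells of WT. The tenocyte gate had 76.5 CPM (74.5 to 78.6) in WT, 144 CPM (140.3 to 148) in DTR and 52.5 CPM (48.2 to 57.1) in B6. The epitenon gate had 79.2 CPM (75.1 to 83.5), 82.7 CPM (78.5 to 87.1) and 27.7 CPM (26.0 to 29.5). The gates did not differ beyond their intervals in WT, whereas the tenocyte gate was the higher one in DTR and B6. Perineurial cells had 232 CPM (186 to 286), 160.2 CPM (89.7 to 264) and 138 CPM (80.2 to 220.4) of *Dkk3*, spread over 88.2%, 77.8% and 100% of cells. Schwann cells had 44.8, 26.0 and 28.4 CPM and T cells 13.8, 18.0 and 18.9 CPM, each with overlapping intervals, and macrophages 2.01, 1.05 and 1.72 CPM.

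Thinned to 2000 UMIs, *Dkk3* was detected in 13.2% (12.3 to 14.2), 21.6% (20.1 to 23.3) and 8.75% (6.93 to 10.9) of tenocyte-gated cells of WT, DTR and B6. Unthinned shares were 46.4%, 64.8% and 32.9%. In macrophage-gated cells thinned shares of *Dkk3* were 0.561%, 0.186% and 0.840%. In the epitenon gate *Dkk3* was detected in 13.2% (11.3 to 15.4), 12.9% (10.9 to 15.0) and 4.93% (4.09 to 5.89) of thinned cells and in 41.6%, 49.6% and 20.3% of unthinned cells, at median depths of 15564, 16113 and 14543 UMIs. Its lower level in B6 thus went with fewer positive cells in both gates.

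**Figure D2:**
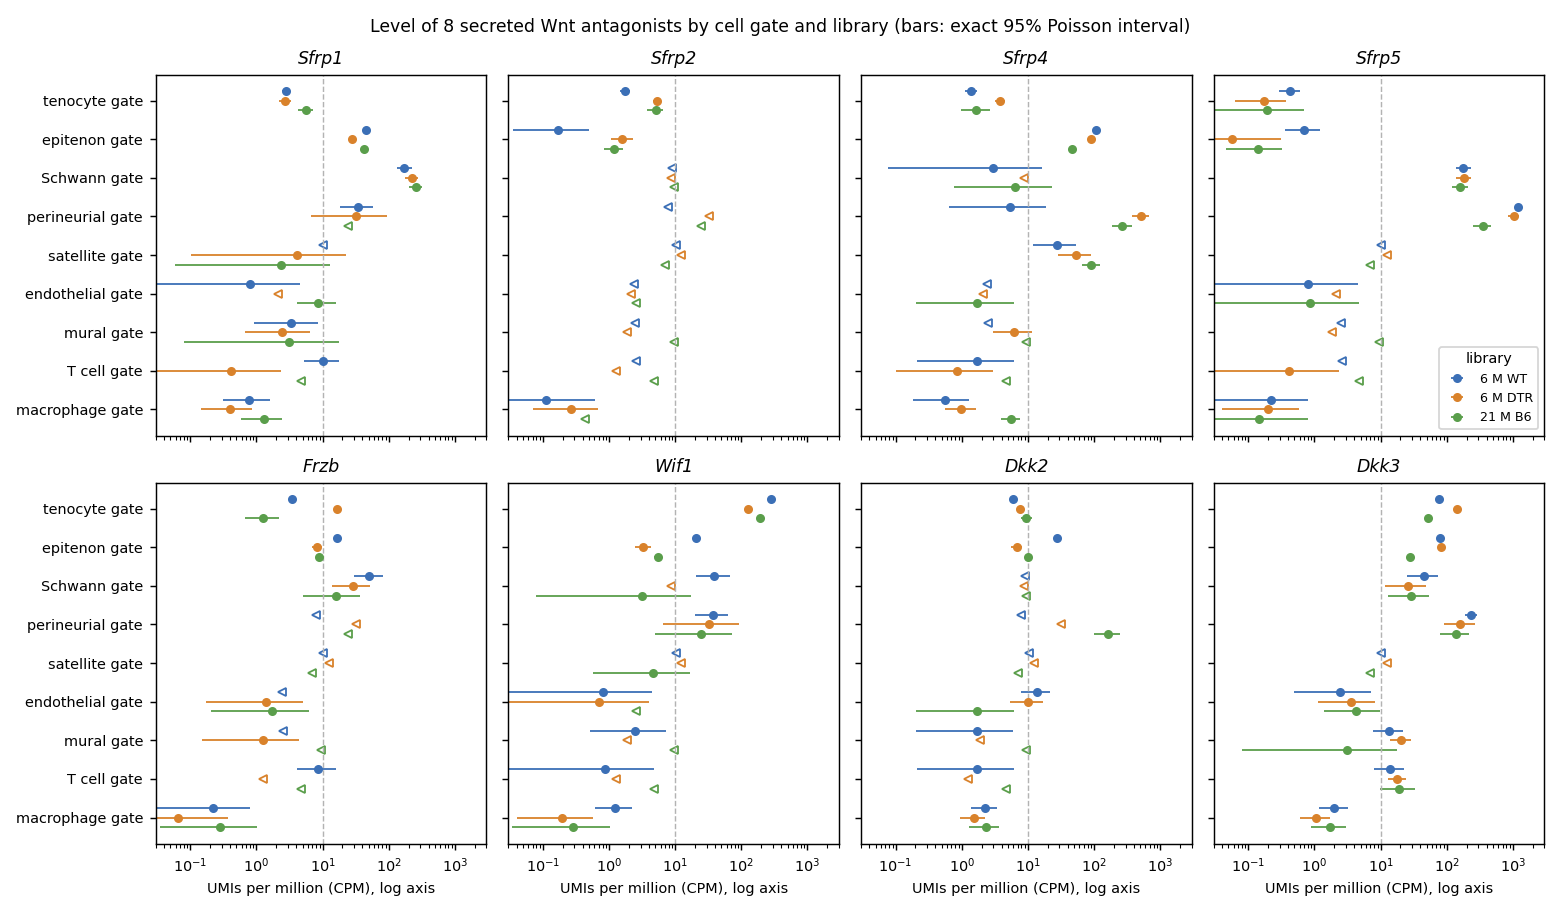
Level of each member (CPM, log axis) in 9 cell gates, 1 colour per library, with exact 95% Poisson intervals. An open triangle marks 0 UMIs and is drawn at the level of 3 UMIs, and the dashed line marks 10 CPM. *Wif1* peaks in the tenocyte gate (125 to 282 CPM), and *Sfrp5* in the perineurial (348 to 1196 CPM) and Schwann gates (161 to 182 CPM).

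Depletion was compared first, in tenocytes. *Wif1* was lower and *Frzb* higher in DTR than in WT, and *Dkk3* was higher by a little less than 2-fold. *Wif1* stood at 0.443 (0.429 to 0.458) times its WT level, *Frzb* at 4.68 (4.02 to 5.46) times and *Dkk3* at 1.88 (1.81 to 1.96) times. A gene was counted when either library had 10 CPM or more and the ratio was past 2-fold. By that rule 2 of the 3 members that reached 10 CPM were counted, beside 3.71% of the 7580 genes compared. The median log2 ratio over these genes was 0.02. Below 10 CPM, *Sfrp2* stood at 3.00 (2.38 to 3.80), *Sfrp4* at 2.79 (2.13 to 3.66) and *Dkk2* at 1.30 (1.11 to 1.51) times, and *Sfrp1* at 0.983 (0.762 to 1.26) times. In female cells alone *Wif1* stood at 0.515 (0.490 to 0.542) times, just inside 2-fold, and in male cells at 0.393 (0.372 to 0.416) times.

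The *Frzb* difference in tenocytes moved with the summed level of chondrocyte markers. The 5 markers were *Col2a1*, *Acan*, *Matn3*, *Col9a1* and *Hapln1*. They summed to 19.8 CPM in the tenocyte gate of WT, 61.5 CPM in DTR and 3.11 CPM in B6, and *Col9a1* was at 0 in B6. Most of the sum was *Acan* (10.7, 31.6 and 0.0973 CPM) and *Hapln1* (5.48, 24.0 and 1.95 CPM). *Matn3* was lower in DTR than in WT (3.08, 1.37 and 0.486 CPM). The paper counts ACAN protein among the tendon matrix molecules that decline with depletion and ageing. It measured protein of whole tendons, and its aged mice in that comparison were younger than those of B6. The *Acan* RNA of tenocyte-gated cells was instead higher in DTR than in WT. At least 1 UMI of the 5 markers was found in 665, 653 and 27 tenocyte-gated cells, or 12.9%, 25.0% and 3.19%. In those cells *Frzb* stood at 7.14 CPM (5.59 to 8.99), 38.1 CPM (34.3 to 42.3) and 8.36 CPM. In the remaining cells it stood at 2.88 CPM (2.46 to 3.34), 8.11 CPM (7.04 to 9.29) and 1.01 CPM. Without the cells carrying a chondrocyte marker, *Frzb* was still 2.82 times higher in DTR than in WT but no longer reached 10 CPM. *Dkk3* was also higher in the cells with a chondrocyte marker than in those without, in each library. In DTR it stood at 218 CPM (208 to 227) against 117 CPM (112 to 121). It stood at 111 against 70.8 CPM in WT and at 94.8 against 51.0 CPM in B6. The part that the cells with a chondrocyte marker play in the comparison was not tested. Tenocyte-gated cells that fell in a Seurat epitenon cluster also had more *Frzb* than the gate as a whole, in WT and DTR. Their part was not tested either.

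In tenocytes of B6, *Wif1* and *Dkk3* were both lower than in WT, each by less than 2-fold over all cells of the gate. *Wif1* stood at 0.675 (0.644 to 0.707) times and *Dkk3* at 0.686 (0.627 to 0.750) times the WT level, while the all-gene median log2 ratio was -0.27. None of the 2 members at 10 CPM passed 2-fold, beside 5.91% of 7399 genes. The *Wif1* value differed between the sexes, at 0.384 (0.349 to 0.422) times in female cells, past 2-fold, and 0.948 (0.882 to 1.02) times in male cells. *Frzb*, below 10 CPM in both libraries, stood at 0.362 (0.190 to 0.631) times, *Sfrp1* at 1.99 (1.45 to 2.68) times and *Sfrp2* at 2.87 (2.04 to 4.00) times.

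Set directly against DTR, tenocytes of B6 had less *Dkk3* and *Frzb*, while *Wif1* went opposite ways in the sexes. *Dkk3* stood at 0.364 (0.333 to 0.398) times, *Frzb* at 0.0774 (0.0409 to 0.133) times and *Wif1* at 1.52 (1.44 to 1.61) times the DTR level. In female cells *Wif1* stood at 0.745 (0.672 to 0.826) times and in male cells at 2.41 (2.23 to 2.61) times, and the difference between the sexes was not tested. Past 2-fold were 2 of 3 members at 10 CPM, *Dkk3* and *Frzb*, beside 10.1% of 7585 genes, with an all-gene median log2 ratio of -0.30. The 3 comparisons share libraries in pairs, so they are not independent of one another.

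In the epitenon gate, depletion went with lower *Wif1*, *Dkk2* and *Frzb*, while *Sfrp4* and *Dkk3* stayed close to their WT levels over all cells of the gate. *Wif1* stood at 0.161 (0.120 to 0.213) times, *Dkk2* at 0.242 (0.197 to 0.297) times and *Frzb* at 0.494 (0.402 to 0.604) times the WT level. *Sfrp1* stood at 0.613 (0.547 to 0.687) times, *Sfrp4* at 0.839 (0.785 to 0.898) times and *Dkk3* at 1.04 (0.969 to 1.12) times. Past 2-fold were 3 of the 6 members at 10 CPM, all of them lower in DTR, beside 1.54% of 7832 genes, 25 of them higher and 96 lower. The all-gene median log2 ratio was 0.01. *Sfrp4* went opposite ways in the sexes: it stood at 0.478 times in female cells (52.6 against 109.8 CPM) and 1.95 times in male cells (124 against 63.9 CPM), and the difference between the sexes was not tested. *Dkk3* did so to a smaller extent, at 1.34 times in female and 0.752 times in male cells.

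*Dkk2* and *Wif1* stayed past 2-fold under all 12 alternative ways of processing, with ratios of 0.141 to 0.415 and 0.0393 to 0.297. In the subset of the gate with *Pi16* and *Krtdap* or *Ccn3* UMIs, described below, *Wif1* was within 2-fold, at 0.541 (0.356 to 0.810) times. The lower *Dkk2* was also seen in the share of positive cells, which was 4.43% (3.30 to 5.82) in WT, 1.54% (0.900 to 2.45) in DTR and 2.30% (1.73 to 2.99) in B6 after thinning, and 14.9%, 5.43% and 7.02% without. Macrophage-gated cells had *Dkk2* in 0.374%, 0.186% and 0.420% after thinning. The *Frzb* difference depended on the processing. It stood at 0.834 times in female cells and 0.309 times in male cells, at 0.741 times when cells were thinned before summing, and at 1.05 times in a Seurat epitenon cluster in place of the gate. Without the cells carrying a tenocyte marker it stood at 0.195 times (2.93 against 15.0 CPM), while cells with such a marker had 19.7 CPM of *Frzb* in DTR and 20.02 CPM in WT.

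In the epitenon gate of each library, *Wif1* was higher in cells with a tenocyte marker than in cells without one. Tenocyte markers were detected in 374, 347 and 327 epitenon-gated cells of WT, DTR and B6, or 33.8%, 31.4% and 13.9%. All 9 tenocyte markers had UMIs in this gate, summing to 303, 254 and 111 CPM. That sum was lowest in B6. The *Wif1* level was lowest in DTR, in this gate as in the tenocyte gate. Cells with a tenocyte marker had 34.2, 9.22 and 25.9 CPM of *Wif1*, and cells without one 12.8 CPM (10.8 to 15.1), 0.503 CPM and 1.73 CPM. The WT level was thus the highest in both kinds of cell. In cells with a tenocyte marker, however, its interval (29.7 to 39.0) overlapped that of B6 (21.8 to 30.5). A single cell held 111 of 358, 32 of 58 and 65 of 194 *Wif1* UMIs of the gate, and without it the levels were 14.2, 1.48 and 3.63 CPM. The part of tenocyte RNA in the remaining values was not tested.

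**Figure D3:**
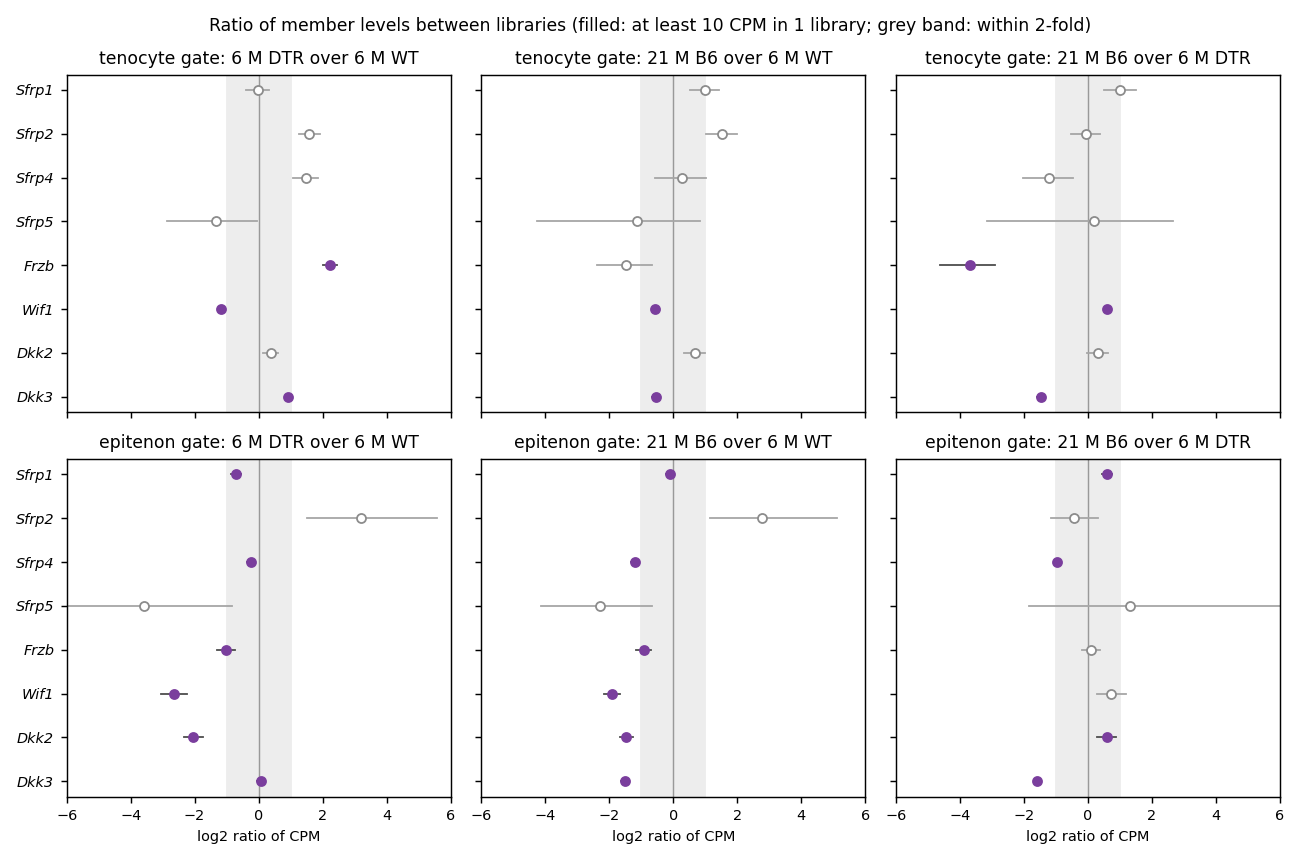
Log2 ratio of the CPM of each member between libraries, with exact 95% intervals (lines, ending at the axis limits where longer), for tenocyte-gated cells (top) and epitenon-gated cells (bottom). Filled points have at least 10 CPM in 1 of the libraries, and the grey band marks ratios within 2-fold. *Frzb* lies at 2.23 in tenocytes and -1.02 in epitenon cells for DTR over WT, and *Dkk2* and *Wif1* lie at -2.04 and -2.63 in the epitenon panel.

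Promoters are shown for the 3 members that were lower in DTR by more than 2-fold over all cells of the epitenon gate. For *Frzb* this depended on the processing, and shared regulation of the 3 genes was not tested. RefSeq promoters of assembly GRCm38.p6, from 250 bases before to 50 bases after the start site, were found for 5 of the 8 members: *Sfrp2*, *Sfrp5*, *Dkk2*, *Wif1* and *Frzb*. Each runs 5′ to 3′ on the strand of the gene, and capitals mark a TATAAA match on either strand. *Dkk2* lies at chr3:132085042-132085341 on the plus strand, *Wif1* at chr10:121033754-121034053 on the plus strand and *Frzb* at chr2:80447347-80447646 on the minus strand.
Dkk2: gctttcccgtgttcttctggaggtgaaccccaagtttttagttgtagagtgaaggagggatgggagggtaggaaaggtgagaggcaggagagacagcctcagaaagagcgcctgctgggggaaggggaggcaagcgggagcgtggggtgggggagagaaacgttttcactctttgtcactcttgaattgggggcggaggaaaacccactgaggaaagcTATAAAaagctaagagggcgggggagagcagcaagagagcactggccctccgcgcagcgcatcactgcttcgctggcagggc
Wif1: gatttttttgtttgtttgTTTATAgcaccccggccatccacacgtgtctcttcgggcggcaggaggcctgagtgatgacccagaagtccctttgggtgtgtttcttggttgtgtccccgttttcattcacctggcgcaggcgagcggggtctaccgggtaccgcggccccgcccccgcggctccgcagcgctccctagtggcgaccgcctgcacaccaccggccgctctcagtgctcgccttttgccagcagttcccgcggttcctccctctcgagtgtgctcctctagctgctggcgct
Frzb: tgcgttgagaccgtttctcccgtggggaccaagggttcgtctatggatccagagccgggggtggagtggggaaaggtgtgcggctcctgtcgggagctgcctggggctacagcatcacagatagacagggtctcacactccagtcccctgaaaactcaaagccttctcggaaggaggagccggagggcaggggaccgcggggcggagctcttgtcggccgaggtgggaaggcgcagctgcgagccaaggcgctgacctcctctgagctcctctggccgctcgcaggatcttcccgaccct
The *Dkk2* match starts 32 bases before the start site. The *Wif1* match, on the opposite strand, starts 232 bases before it, and *Frzb* has no match. The Tcf/Lef core was searched on both strands as CTTTGAA, together with the variants CTTTGAT, which differs by its final letter, the variant CTTTGTA, and lastly the variant CTTTGTT. It was found in 0 of the 5 member promoters and in 16.9% of the 32851 promoters of the table, and TATAAA was found in 13.6% of them. A match is a description of these letters only.

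With natural ageing, epitenon cells had less *Dkk3*, *Sfrp4*, *Dkk2* and *Wif1* than in WT, while *Sfrp1* stood close to its WT level. *Dkk3* stood at 0.350 (0.322 to 0.380) times, *Sfrp4* at 0.432 (0.404 to 0.462) times, *Dkk2* at 0.363 (0.316 to 0.417) times and *Wif1* at 0.267 (0.223 to 0.318) times. *Frzb* stood at 0.529 (0.450 to 0.622) times and *Sfrp1* at 0.923 (0.847 to 1.01) times. Past 2-fold were 4 of 6 members at 10 CPM, all of them lower, beside 3.45% of 7762 genes, 148 of them higher and 120 lower. The all-gene median log2 ratio was -0.27, so part of each difference is shared with the typical gene. *Dkk3* and *Dkk2* stayed past 2-fold under all 12 alternatives, with ratios of 0.258 to 0.434 and 0.303 to 0.457.

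*Sfrp4* was within 2-fold of WT under 4 of these alternatives: 0.625 times in female cells, 0.529 times with TMM scaling factors, 0.576 times in the Seurat cluster and 0.623 times without the cells carrying a tenocyte marker. *Wif1* was within 2-fold, at 0.713 times, when cells with over 5000 genes were kept. The thinned share of *Sfrp4*-positive epitenon cells was 7.51% (6.03 to 9.23) in WT, 8.15% (6.61 to 9.93) in DTR and 4.21% (3.44 to 5.10) in B6, against 0.187%, 0.279% and 0.420% of macrophages.

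Against DTR, epitenon cells of B6 had less *Dkk3*, at 0.335 (0.309 to 0.364) times, while *Sfrp4*, at 0.515 (0.480 to 0.552) times over all cells, went opposite ways in the sexes. It stood at 1.31 (1.16 to 1.47) times in female cells and 0.139 (0.120 to 0.160) times in male cells, and that difference was not tested. *Sfrp1* stood at 1.51 (1.36 to 1.67) times and *Dkk2* at 1.5 (1.21 to 1.86) times, and in male cells alone both were past 2-fold, at 2.1 and 2.15 times. Past 2-fold was 1 of 4 members at 10 CPM, *Dkk3*, beside 5.4% of 7801 genes, with an all-gene median log2 ratio of -0.28. *Dkk3* was the member that stood lower in B6 than in both 6 M libraries in both gates.

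Tenocytes and epitenon cells are not uniform, so the members were also read in subsets named by genes that earlier analyses of these data had pointed out. A cell counted as having UMIs of a subset gene from 2 UMIs on, and a cell with fewer counted as without it. Tenocyte-gated cells with *Slurp1* or *Serpinb7* UMIs numbered 1437, 426 and 68, or 28.0%, 16.3% and 8.03% of the gate in WT, DTR and B6. In these cells *Dkk3* stood at 131, 151 and 83.6 CPM, and in the other tenocytes at 53.0, 143 and 49.3 CPM. The DTR difference in *Dkk3* lay mostly outside the *Slurp1* or *Serpinb7* cells: its ratio to WT was 2.69 (2.56 to 2.83) there, past 2-fold, and 1.15 (1.07 to 1.24) inside them.

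*Wif1* had the opposite distribution in WT. It stood at 171 CPM in *Slurp1* or *Serpinb7* cells and 330 CPM (324 to 335) in the others, but at 127 and 124 CPM in DTR and 122 and 197 CPM in B6. The ratio of DTR to WT was thus 0.744 (0.690 to 0.802) in *Slurp1* or *Serpinb7* cells and 0.377 (0.364 to 0.391) in the others. Cells with *Ucma* UMIs, of which there were 578, 87 and 60, had 213, 140.3 and 89.5 CPM of *Wif1* and 36.8, 91.5 and 43.3 CPM of *Dkk3*.

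A small group of tenocyte-gated cells with *Igfbp3* or *Scn7a* UMIs, 47, 66 and 21 cells, held much of the little *Sfrp2* and *Sfrp4* of this gate in DTR. *Sfrp2* stood at 24.2, 94.2 and 0 CPM in these cells and at 1.53, 3.02 and 5.21 CPM in the others. *Sfrp4* stood at 2.85, 80.4 and 0 CPM, compared with 1.36, 1.88 and 1.70 CPM. *Wif1* was lower in these cells of DTR, at 21.8 CPM against 127 CPM in the other tenocytes of that library. *Dkk2* stood at 42.7, 19.5 and 71.7 CPM in them, above the 5.58, 7.41 and 7.71 CPM of the other tenocytes. These levels rest on few cells, 21 of them in B6. Whether the DTR cell with the most *Sfrp2* UMIs of the gate lies in this group was not tested.

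**Figure D4:**
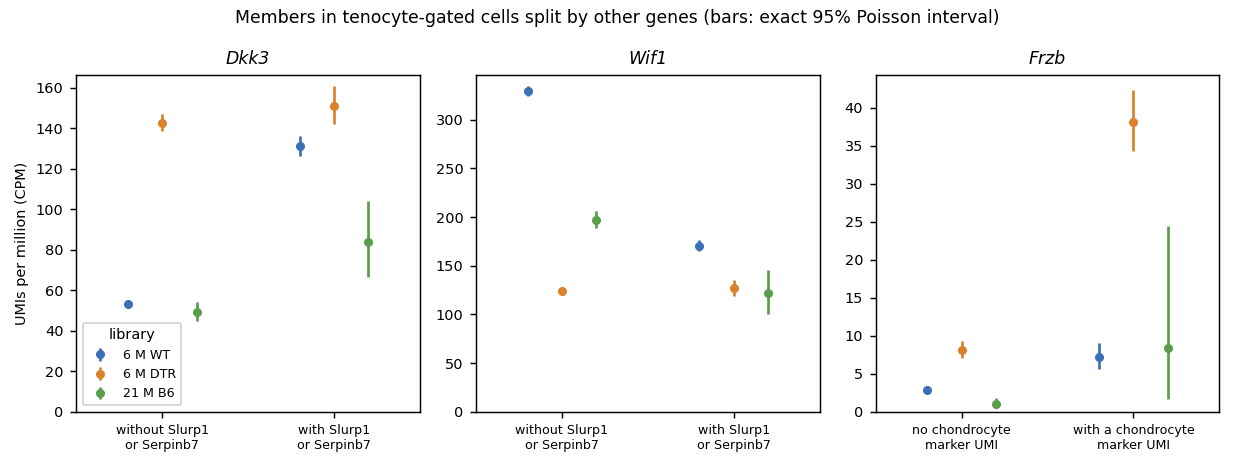
Levels (CPM, exact 95% Poisson intervals) in tenocyte-gated cells by library: *Dkk3* and *Wif1* in cells without and with at least 2 UMIs of *Slurp1* or *Serpinb7*, and *Frzb* in cells without and with a chondrocyte marker UMI. *Wif1* of WT differs by 330 against 171 CPM between the subsets, *Dkk3* of WT differs by 53.0 against 131 CPM, and *Frzb* of DTR by 8.11 against 38.1 CPM.

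In the epitenon gate, 852, 854 and 1306 cells had *Krtdap* or *Ccn3* UMIs without *Pi16*, and 228, 231 and 959 cells had both. *Sfrp1* was higher in the cells with *Pi16*, at 61.4, 47.5 and 53.2 CPM against 41.0, 23.1 and 32.7 CPM in WT, DTR and B6. *Dkk3* was higher in the cells without *Pi16*, at 91.3, 92.1 and 35.6 CPM against 36.5, 45.3 and 18.1 CPM. These orders held in each of the 3 libraries. The share of cells with *Pi16* was 20.6%, 20.9% and 40.8%, and the lower *Dkk3* of B6 was found within each subset, with ratios to WT of 0.390 (0.355 to 0.428) without *Pi16* and 0.496 (0.402 to 0.613) with it.

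*Sfrp4* of WT was higher in the cells with *Pi16*, at 186 CPM, than in those without, at 85.8 CPM. In B6 the levels were 46.7 and 40.7 CPM, and in DTR 106 and 86.9 CPM. The ratio of DTR to WT was 0.569 (0.499 to 0.648) with *Pi16* and 1.01 (0.934 to 1.10) without it, and that of B6 was 0.251 (0.226 to 0.279) and 0.474 (0.433 to 0.520). *Dkk2* was lower in both DTR subsets, at 0.222 (0.172 to 0.283) times without *Pi16* and 0.312 (0.208 to 0.456) times with it. *Wif1* of DTR stood at 0.0720 (0.0439 to 0.112) times its WT level without *Pi16*. With *Pi16* it stood at 0.541 (0.356 to 0.810) times, within 2-fold. *Frzb* was higher without *Pi16*, at 19.4, 9.74 and 10.2 CPM against 6.94, 2.74 and 7.15 CPM.

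**Figure D5:**
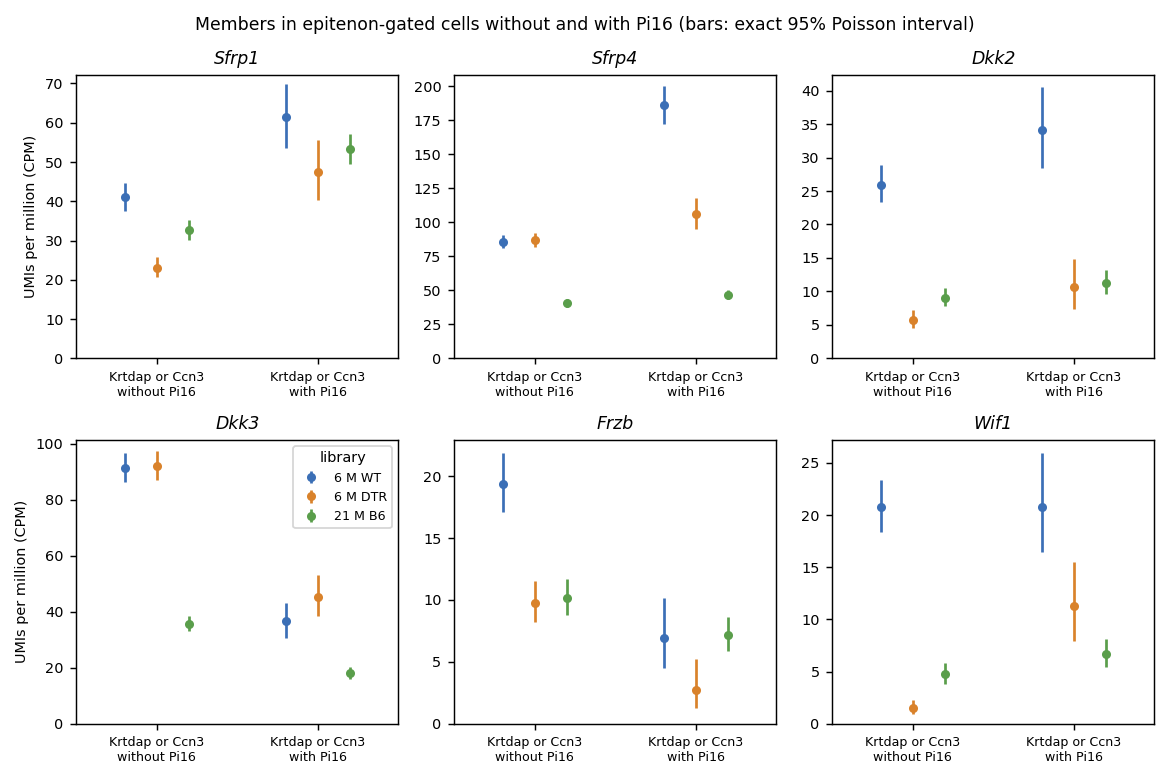
Levels of 6 members (CPM, exact 95% Poisson intervals) in epitenon-gated cells with *Krtdap* or *Ccn3*, without and with *Pi16* (each from 2 UMIs on), 1 colour per library. *Dkk3* is higher without *Pi16* (35.6 to 92.1 CPM against 18.1 to 45.3 CPM) and *Sfrp1* higher with it (47.5 to 61.4 CPM against 23.1 to 41.0 CPM).

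Few cells had UMIs of more than 1 member after thinning. In the tenocyte gate 3.74% (3.23 to 4.29), 3.63% (2.95 to 4.42) and 3.07% (2.02 to 4.47) of cells of WT, DTR and B6 had at least 2 members, and in the epitenon gate 5.25% (4.01 to 6.73), 3.71% (2.68 to 5.00) and 2.55% (1.95 to 3.27). No member was detected in 64.3%, 67.0% and 74.6% of tenocytes and in 69.0%, 73.5% and 80.8% of epitenon cells. The commonest pair in WT tenocytes was *Dkk3* with *Wif1*, in 129 cells: *Wif1* was found in 19.0% of *Dkk3*-positive and 24.3% of *Dkk3*-negative cells. *Dkk2* and *Wif1* shared 23 cells there, with *Wif1* in 37.7% of *Dkk2*-positive and 23.4% of *Dkk2*-negative cells. In B6 they shared 9 tenocytes, and the shares were 40.9% and 14.3%. In DTR they shared 3, close to the 3.69 expected without a link between the 2 genes, and the shares were 7.5% and 9.24%. The *Dkk2*-positive tenocytes numbered 61 in WT, 40 in DTR and 22 in B6.

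Likeness was measured as the Pearson correlation of log2(CPM + 1) over the 19 profiles, each 1 gate in 1 library, that had at least 50 cells. These profiles share libraries and differ in depth, so the values only describe them. Among 10084 genes, the genes most like *Wif1* were *Bmpr1b* (0.940), *Il33* (0.940) and *Col8a2* (0.932), and those most like *Dkk3* were *Plxdc2* (0.968), *Wasf1* (0.932) and *Rcn2* (0.923). *Sfrp5* was most like *Gpr37l1* (0.993), *Pmp2* (0.992) and *Vmn1r181* (0.992). The perineurial gate, where *Sfrp5* was highest, had too few cells for a profile in any library, as had the Schwann gate of B6. The *Sfrp5* values therefore rest on the Schwann gates of WT and DTR (51 and 53 cells), with at most 182 CPM. The genes most like *Sfrp1* were *Entpd2* (0.943), *Abca8b* (0.934) and *Abca8a* (0.927), and those most like *Frzb* were *Bmper* (0.925), *Gria3* (0.908) and *Cobl* (0.887). *Sfrp4* was most like *Duox1* (0.915), *1700019D03Rik* (0.915) and *Cyp2f2* (0.913), and *Dkk2* like *Herpud1* (0.837), *Serpinb6a* (0.816) and *Cd34* (0.811). *Sfrp2* was too low to be matched. Between members the highest value was that of *Sfrp1* and *Frzb* (0.87) and the lowest that of *Sfrp5* and *Dkk2* (-0.41).

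The other genes of the pathway, a list of 81, give the setting in which the antagonists were measured. Of the Wnt ligands, *Wnt9a* was found in both main gates, at 14.5, 23.0 and 47.1 CPM in tenocytes and 40.8, 48.9 and 49.5 CPM in epitenon cells of WT, DTR and B6. Epitenon cells also had *Wnt10b* (35.6, 39.1 and 41.3 CPM), *Wnt11* (39.7, 31.1 and 59.2 CPM) and *Wnt2* (16.1, 11.0 and 15.6 CPM). *Wnt11* was found in mural cells of WT and DTR at 28.5 and 27.9 CPM. In B6 it stood at 15.9 CPM in macrophages and at 11.0 CPM in T cells, the latter from 7 UMIs. The epitenon gate held 54.0% of all UMIs of B6, and the part of its RNA in these values was not tested. *Wnt4* reached 11.4 and 11.5 CPM in macrophages and 17.2 and 16.7 CPM in T cells of WT and DTR. It also reached 14.2 CPM in endothelial and 10.5 CPM in mural cells of DTR. In Schwann cells of WT it stood at 14.9 CPM, from 5 UMIs. *Wnt6* stood at 35.8 and 34.6 CPM in Schwann cells of WT and DTR, from 12 UMIs each. *Wnt10a* stood at 14.9 CPM in those of WT, from 5 UMIs. The ligand-binding antagonists *Wif1* and *Sfrp4* were thus measured in gates that also held ligand transcripts.

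In tenocytes, 27 genes of the list reached 10 CPM in each comparison. The counts below stand beside shares past 2-fold over all genes. These were 3.71% for DTR against WT, 5.91% for B6 against WT and 10.1% for B6 against DTR. Against WT, 1 of them was past 2-fold in DTR: *Fzd1*, a Frizzled receptor, at 2.17 (2.03 to 2.33) times (51.5 against 23.7 CPM). In B6, 3 were past 2-fold, all higher: *Wnt9a* at 3.25 (2.91 to 3.63) times, *Myc*, a transcription factor gene responsive to Wnt and many other signals, at 2.98 times (856 against 288 CPM), and *Nkd2*, a feedback inhibitor, at 2.01 times (35.1 against 17.5 CPM). The direct comparison of B6 with DTR had 2 higher, *Myc* at 2.85 times and *Wnt9a* at 2.05 times, and 2 lower, *Fzd2* at 0.412 times (10.4 against 25.3 CPM) and the kinase gene *Gsk3b* at 0.477 times (57.6 against 121 CPM). The median log2 ratio of the list was 0.21 for DTR against WT, -0.25 for B6 against WT and -0.34 for B6 against DTR, beside 0.02, -0.27 and -0.30 over all genes.

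In epitenon cells, 1 gene of the list was past 2-fold in each comparison. It was 1 of 36 at 10 CPM for DTR against WT, beside 1.54% of all genes. For B6 against WT and against DTR it was 1 of 35, beside 3.45% and 5.4%. *Nkd1*, another feedback inhibitor, was lower in DTR than in WT at 0.485 times (5.92 against 12.2 CPM). *Myc* was higher in B6, at 2.38 times the level of WT (488 against 205 CPM) and 2.83 times that of DTR (172 CPM). The list medians were 0.05, -0.06 and -0.20 on the log2 scale, beside 0.01, -0.27 and -0.28 over all genes.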

How the data were processed

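The authors deposited UMI counts per gene and barcode, without normalization, from 10x Genomics Chromium 3′ libraries. The matrix headers name Cell Ranger 6.0.1 and the submitters' processing notes Cell Ranger 2.1.1. The genome build is not given in the sources used here. All other values were computed from these counts. Barcodes numbered 15536 (6 M WT), 16099 (6 M DTR) and 12273 (21 M B6). Kept were cells with 1000 to 5000 detected genes whose mitochondrial UMIs did not exceed 10%. A marker was detected with at least 2 UMIs, and a gate asked for 4 of 9 tenocyte, 2 of 6 epitenon, 3 macrophage, T cell, endothelial, mural, Schwann or perineurial, 2 satellite or 5 muscle fibre markers. These numbers were set after marker counts per cell were seen. A tenocyte-gated cell could have at most 2 epitenon markers, and an epitenon-gated cell at most 2 tenocyte markers. A cell that reached 4 tenocyte and 2 epitenon markers could thus stay in the tenocyte gate. Cells classed as passing several gates were left out of each. Seurat clusters (20 dimensions, resolution 0.1) held 92.2% to 99.5% of tenocyte-gated and epitenon-gated cells in the matching cluster and served as an alternative. The clusters were larger than the gates. The epitenon gate held 66.2%, 62.3% and 85.7% of the epitenon cluster of WT, DTR and B6. The tenocyte gate held 93.5%, 90.1% and 81.3% of the tenocyte cluster.

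Counts were summed per gate and library and divided by all UMIs of these cells (CPM). No test was possible with a single library per group. Ratios have exact 95% intervals from both counts, and a floor of 10 CPM and a 2-fold limit were applied to all genes. For shares of positive cells, each cell was thinned to 2000 UMIs. Scrublet marked 1, 6 and 1 cells, under 0.5%, so its automatic threshold had not worked. Leaving out these cells was still counted among the alternatives, although it could hardly change a value. Doublets were otherwise kept, and the 5% of cells with the top scores were left out in a further alternative. The calculation was tested on simulated data.

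All members are named. Of the pathway list, genes past 2-fold in tenocyte-gated or epitenon-gated cells and ligands with at least 10 CPM in any gate are named. The 3 genes most like a member were sought among genes with at least 20 CPM in any profile. Members and lists were chosen with earlier results of these data known. Python 3.11.15 (numpy 2.4.6, pandas 2.3.3, scipy 1.17.1, scanpy 1.11.5, matplotlib 3.10.9) and R 4.3.3 (Seurat 5.3.0, edgeR 4.0.16 for TMM factors) were used. The proteomics and histology of the study were not analysed here.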

Additional observations from a re-analysis of the deposited data

Results flagged for a closer look

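*Frzb* stood at 4.68 (4.02 to 5.46) times its WT level in tenocyte-gated cells of DTR and at 0.494 (0.402 to 0.604) times in epitenon-gated cells of the same libraries, so the same contrast went opposite ways in the 2 cell classes. The difference between the classes was not tested, since each group had 1 library. Tenocyte-gated cells with a chondrocyte marker UMI had 38.1 CPM of *Frzb* in DTR. In DTR, 198 tenocyte-gated cells fell in the Seurat epitenon cluster and had 93.0 CPM of *Frzb* (81.9 to 105), and 87 such cells of WT had 38.1 CPM. With clusters in place of gates the epitenon log2 ratio was 0.071.

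Female and male cells of the same libraries went opposite ways for 3 members. *Sfrp4* in the epitenon gate stood at 0.478 times in female and 1.95 times in male cells for DTR against WT, and at 1.31 and 0.139 times for B6 against DTR. *Dkk3* in the epitenon gate stood at 1.34 and 0.752 times for DTR against WT, and *Wif1* in the tenocyte gate at 0.745 and 2.41 times for B6 against DTR. These differences between the sexes were not tested, since the cells of each sex came from 1 pooled library per group.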

How the results depend on the processing

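The counts of members past 2-fold moved by over 1.5 times under the settings given here, and the cause was not tested except where fewer cells or another floor make the count by construction. For DTR against WT in tenocytes (2 in the report) it was 1 in female cells, 5 without a floor and 1 without the cells carrying a chondrocyte marker UMI. For B6 against WT in tenocytes (none in the report) it was 1 in female cells, 1 with cells thinned before summing, 1 at a floor of 5 CPM and 3 without a floor. For B6 against DTR in tenocytes it was 4 without a floor and 1 without the chondrocyte-marker cells. In epitenon cells, DTR against WT gave 5 without a floor. For B6 against DTR (1 in the report) it was 2 with Seurat clusters, a stricter gate, thinning before summing, no floor or the tenocyte-marker cells left out, 3 with no upper limit on genes or a 1.5-fold limit, and 4 in male cells. The direction of *Frzb* in epitenon cells of DTR reversed, to a log2 ratio of 0.071, with Seurat clusters. Genes of the pathway list past 2-fold numbered 3 for DTR against WT and 8 for B6 against DTR in tenocytes at a floor of 5 CPM. In epitenon cells they numbered 2 for DTR against WT with Seurat clusters, 2 for B6 against WT with Seurat clusters, TMM or a floor of 5 CPM, and for B6 against DTR 2 with Seurat clusters or a floor of 5 CPM and 3 with TMM. Thinned to 1000 UMIs, at least 2 members were found in 1.30%, 1.68% and 0.826% of tenocytes and 1.99%, 1.54% and 0.808% of epitenon cells of WT, DTR and B6. Of the 117 alternative values behind the main comparisons, 84 stayed within these limits. The values include the setting that left out Scrublet doublets, which removed almost no cells and so could hardly move a count. The alternatives that leave out top Scrublet scores, chondrocyte-marker cells or tenocyte-marker cells were chosen after seeing the data. *Frzb* gave no ratio in tenocytes of B6 when thinned before summing, since no UMI was left. TMM factors of 0.873 to 1.11 moved B6 upwards relative to WT and DTR. No paired analysis was possible because each group had 1 library, which also left no replicate to leave out. Depth limits *Sfrp2* in each gate and each member in the gates with few cells.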
